A study of Mus musculus with 8 samples.

Results

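Goblet cells secrete the mucus that covers the ileal epithelium, and 10 of their genes were examined by symbol: Muc2, Fcgbp, Clca1, Zg16, Tff3 and Agr2 for the mucus and its assembly, Spdef and Atoh1 for the lineage, and Sytl2 and Bcas1. All 10 were measured, each by 1 probe set, among 22206 probe sets of which 19572 carried 1 gene symbol.

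The samples came from male KKAy mice, a strain with the yellow agouti allele that becomes obese and diabetic. The labels describe mice of 30 g, 14 weeks of age when housed, on a high-fat diet that gave 45% of energy as fat. After 4 weeks of that diet, 1 group received voglibose at 1 mg/kg by daily gavage and the other an equal volume of water, both for 8 weeks. The drug blocks alpha-glucosidases in the small intestine, so that more carbohydrate reaches the distal gut. Each group held 4 mice with 1 Affymetrix array each, hybridised with RNA from a piece of about 4 cm of ileum, and the comparison asks whether the goblet cell genes differ after treatment. There was no lean or untreated group, and both groups carry the strain's alleles and ate the same diet.

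Intestinal mucus is a gel of Muc2 polymers, which goblet cells pack into granules and release at the surface. Fcgbp, Clca1, Zg16 and Tff3 are secreted with it, and Agr2 is a protein disulfide isomerase of the endoplasmic reticulum that Muc2 needs for its assembly. Atoh1 commits crypt progenitors to the secretory lineage, and Spdef acts downstream of it in goblet cell maturation. In whole tissue, fewer goblet cells and less RNA per goblet cell cannot be told apart.

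Arrays were alike in their overall distribution, with medians from 5.89 to 5.94 and upper quartiles from 9.04 to 9.22 (log2 signal). Mice stood apart, at both ends, in the regional genes their sample held. Fabp6, the bile acid binding protein that marks the distal ileum, was 4.01 in water mouse 4 and 3.54 in voglibose mouse 2, below the lower quartiles of 4.05 to 4.18. In the others it lay between 8.14 and 17.50, highest in water mouse 2. Both samples therefore lacked the signal of the defining gene of the labelled segment. In voglibose mouse 2, genes of the exocrine pancreas were also present, with Amy2a5 at 14.09 and Cpa1 at 12.01, where the other 7 arrays ran from 4.41 to 5.32 and from 4.72 to 5.37. Water mouse 2 stood at the opposite end, with the ileal hormone Fgf15 at 13.62 against at most 8.79 in the others, and lactase (Lct), a gene of the proximal small intestine, at 12.39 against 14.83 to 15.85. The 10 genes and the counts of the marker lists were therefore also computed without water mouse 4 and voglibose mouse 2, and without water mouse 2.

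Promoter sequence was available from RefSeq (GRCm38.p6) for 5 of the 10 genes, Muc2, Fcgbp, Agr2, Spdef and Atoh1. The 250 bases before the start of Muc2 and Fcgbp are shown, the genes with the highest differences between the groups, and capitals mark the letters of both motifs searched. CAGCTG is an E-box, the kind of element that basic helix-loop-helix factors such as Atoh1 bind, and reads the same on both strands. GGATG (or CATCC) holds the core that the ETS factor Spdef prefers. No matches overlapped.
Muc2, plus strand, chr7:141690090-141690339: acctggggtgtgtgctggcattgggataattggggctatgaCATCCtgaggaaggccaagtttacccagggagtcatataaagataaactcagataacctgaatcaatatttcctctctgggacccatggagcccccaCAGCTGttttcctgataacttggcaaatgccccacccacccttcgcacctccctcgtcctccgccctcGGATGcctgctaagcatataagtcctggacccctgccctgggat
Fcgbp, plus strand, chr7:28070986-28071235: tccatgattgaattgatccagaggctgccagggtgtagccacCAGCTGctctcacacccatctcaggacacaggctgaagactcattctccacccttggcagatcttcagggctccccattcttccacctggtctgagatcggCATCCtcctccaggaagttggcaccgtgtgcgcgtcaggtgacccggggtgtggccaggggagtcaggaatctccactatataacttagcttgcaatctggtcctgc
Muc2 held 1 CAGCTG and 2 GGATG matches, and Fcgbp held 1 of each. The windows of Agr2, Spdef and Atoh1 had no CAGCTG, and Spdef had 1 GGATG. Among 32851 promoter windows of the same length, 13% held CAGCTG and 37.3% held GGATG on either strand, so the matches are descriptions of these windows alone.

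The goblet cell genes showed no shift between the groups beyond the spread between mice. Of the 10 genes, 5 had a higher mean in voglibose mice and 5 a lower one, where 48.7% of all probe sets were higher. The number higher was again 5 without water mouse 4 and voglibose mouse 2, and 7 without water mouse 2. The median difference of the 10 was -0.01 on the log2 scale, and over all probe sets it was -0.01. No gene passed limma's test after Benjamini-Hochberg correction over the 22206 probe sets, with adjusted p from 0.717 to 0.985, and 0% of the array passed. Ordinary linear models, with no moderated variance, also gave 0 probe sets. At an unadjusted p under 0.05 there were 0 of the 10 genes, where 7.52% of the array stood. The same 7.52% also differed by over 1.2-fold, the threshold named in the study's design text. A mean difference of over 1.2-fold, whatever its p, was seen for 3 of the 10, Muc2, Fcgbp and Agr2, and for 24.5% of the array. The groups overlapped in all 10 genes, and they did not overlap in 4.35% of probe sets.

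Muc2, the gel-forming mucin, had 17.81, 17.91, 17.79 and 16.55 in water mice 1 to 4 and 18.37, 17.26, 17.92 and 18.09 in voglibose mice 1 to 4 (log2 signal). Water mouse 4 was the lowest and voglibose mouse 2 the next, while the other 3 voglibose mice lay above every water mouse, the closest at 17.92 against 17.91. The means were 17.52 ± 0.65 and 17.91 ± 0.47 (SD, n = 4), and the difference was 0.40 ± 0.32 (SE; limma, adjusted p = 0.814). Its 95% interval ran from -0.30 to 1.09, so a change of up to about 2-fold upwards lay inside it. Without water mouse 4 the difference was 0.07, without voglibose mouse 2 it was 0.61, and without both it was 0.29.

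Fcgbp, a large protein of the mucus gel with many von Willebrand D domains, had 16.02, 16.12, 16.21 and 15.60 in water mice and 16.97, 15.92, 16.19 and 16.50 in voglibose mice. Voglibose mouse 1 was highest, and voglibose mice 2 and 3 lay within the range of the water mice. The difference was 0.41 ± 0.23 (SE; 95% interval -0.09 to 0.91), the smallest unadjusted p of the 10 genes at 0.101 in limma's fit. It was 0.22 without voglibose mouse 1, 0.57 without voglibose mouse 2 (unadjusted p = 0.0280 in limma's fit, adjusted p = 0.827), and 0.44 without water mouse 4 and voglibose mouse 2.

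**Figure D1:**
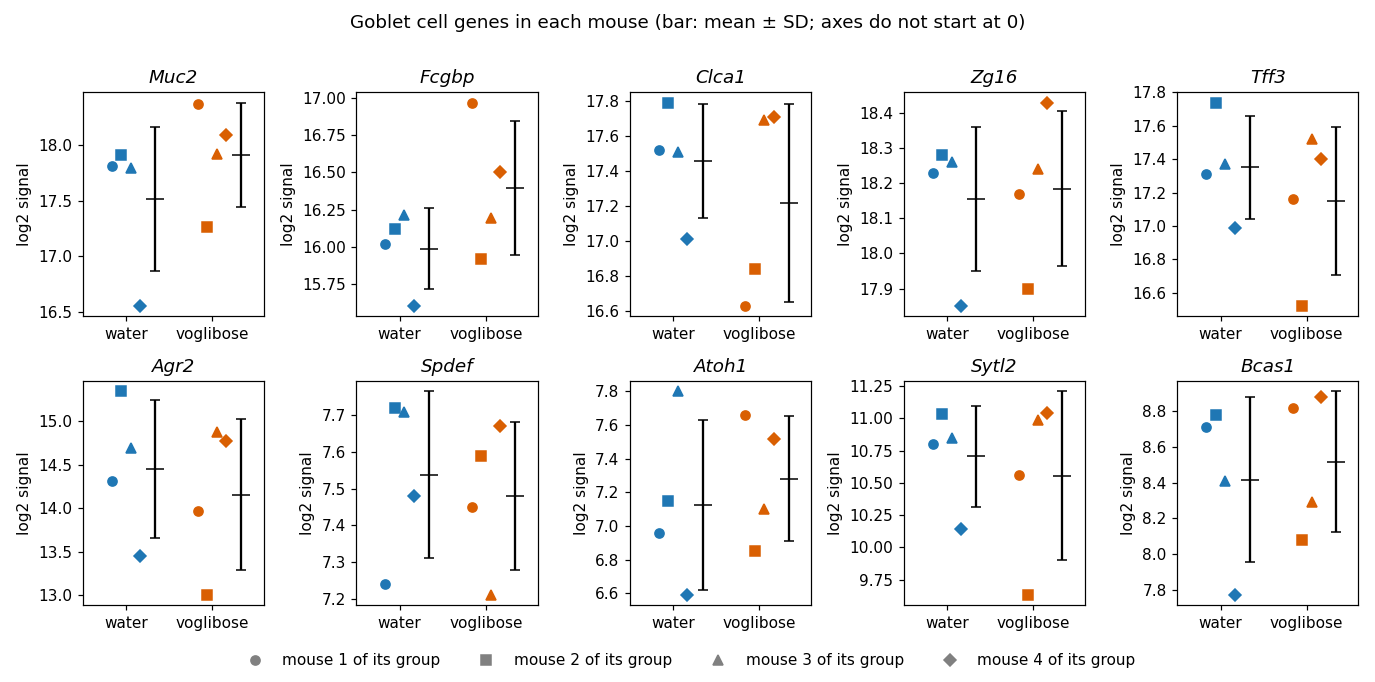
Log2 signal of each of the 10 goblet cell genes in the 8 mice, 1 panel per gene with its own y axis, water in blue and voglibose in orange. Marker shape gives the mouse number within its group and pairs no mice, and the black bar is the mean ± SD (n = 4); for Muc2 water mouse 4 lay at 16.55 and voglibose mouse 1 at 18.37, and in every panel the groups overlap.

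Clca1, a metalloprotease of the mucus that acts on Muc2, had 17.52, 17.79, 17.51 and 17.01 in water mice and 16.63, 16.84, 17.69 and 17.71 in voglibose mice. Here voglibose mouse 1, the highest mouse for Muc2 and Fcgbp, was the lowest of all 8. The difference was -0.24 ± 0.27 (SE; 95% interval -0.83 to 0.35), and -0.04 without that mouse. Zg16, a lectin that binds bacterial cell wall, varied least of the mucus products, from 17.85 to 18.28 in water and from 17.90 to 18.43 in voglibose mice. Its difference was 0.03 ± 0.16, with an interval from -0.33 to 0.39. Zg16, Muc2, Clca1 and Tff3 were bright genes, with group means of at least 17.15 where the array maxima were 19.26 to 19.55, and whether their signals were near saturation was not tested.

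Tff3, the trefoil peptide of epithelial repair, had 17.31, 17.74, 17.37 and 16.99 in water mice and 17.16, 16.52, 17.52 and 17.40 in voglibose mice, a difference of -0.20 ± 0.23. The lowest was again voglibose mouse 2, then water mouse 4. Agr2 had the widest spread of the 10, with 14.31, 15.34, 14.69 and 13.45 in water mice and 13.97, 13, 14.87 and 14.77 in voglibose mice. Its difference was -0.30 ± 0.45 (SE), with an interval from -1.28 to 0.69 that leaves the size and the sign of a change unknown. Without voglibose mouse 2 it was 0.09, and without water mouse 2, the highest, it was 0.0025. The assembly factor and the mucin it serves thus had group differences of opposite sign, neither of them past the test.

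The lineage factors were the nearest to the array median, though above it, and whether low signal made their differences too small was not tested. Atoh1 had 6.96, 7.15, 7.80 and 6.59 in water mice and 7.66, 6.85, 7.10 and 7.52 in voglibose mice, with a difference of 0.16 ± 0.26 (SE; 95% interval -0.42 to 0.73). Spdef had 7.24, 7.72, 7.71 and 7.48 in water mice, and 7.45, 7.59, 7.21 and 7.67 in those on voglibose, with a difference of -0.06 ± 0.16 and an interval from -0.42 to 0.30. For Spdef, water mouse 4 and voglibose mouse 2 lay in the middle of the others, and without water mouse 2 the difference was 0.0033.

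Sytl2, a Rab27-binding protein of granule release, had 10.80, 11.03, 10.85 and 10.14 in water mice and 10.56, 9.63, 10.99 and 11.04 in voglibose mice. The difference was -0.15 ± 0.30 (SE), and 0.16 without voglibose mouse 2, whose signal was the lowest. Bcas1, first named as a gene amplified in breast carcinoma, had 8.71, 8.78, 8.41 and 7.77 in water mice, and 8.82, 8.08, 8.29 and 8.88 in those on voglibose. The difference was 0.10 ± 0.25, and the mice of the 2 groups were interleaved. Without water mouse 4 and voglibose mouse 2, the differences of the 8 genes other than Muc2 and Fcgbp ran from -0.26 for Clca1 and -0.24 for Agr2 to 0.12 for Atoh1, with adjusted p from 0.94 to 0.991 in limma's fit.

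**Figure D2:**
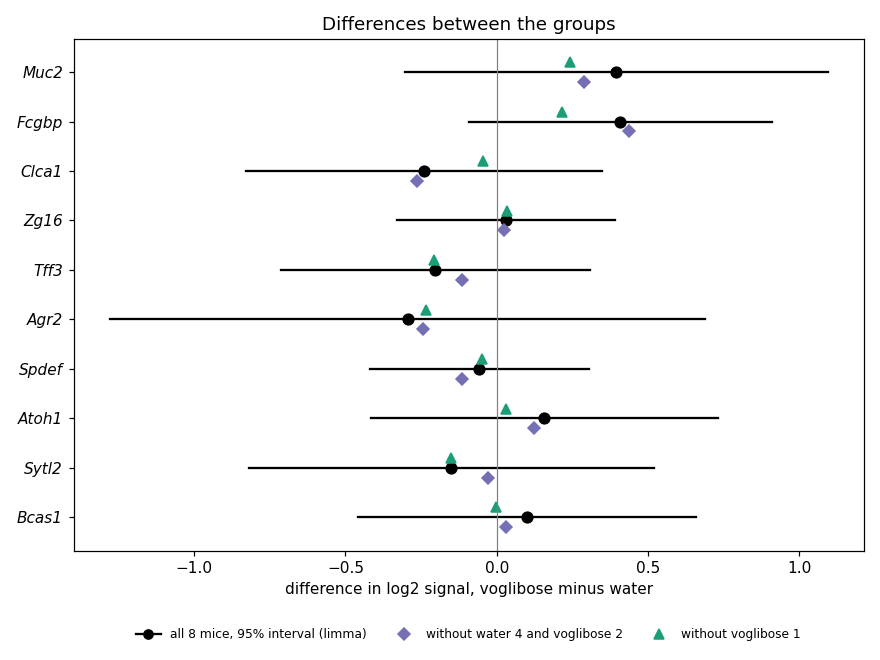
Difference in log2 signal between voglibose and water mice for each goblet cell gene, with the 95% interval of limma's fit on 8 mice (black). Every interval includes 0, for Muc2 from -0.30 to 1.09; diamonds leave out water mouse 4 and voglibose mouse 2 (Muc2 0.29), and triangles leave out voglibose mouse 1 (Clca1 -0.04).

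The spread between mice of the same group was shared by most of these genes. In 8 of the 10 genes, all but Clca1 and Spdef, water mouse 4 and voglibose mouse 2 were the 2 lowest of the 8 mice. The same held for 4.73% of all probe sets and for 6.29% of the probe sets above the median signal. Relative to each gene's mean over the 8 mice, the mean of the 10 genes was -0.53 in water mouse 4 and -0.52 in voglibose mouse 2, and from 0.01 to 0.32 in the other 6. The same pair was lowest in 8 of 26 other goblet cell markers, in 8 of 11 distal ileal genes, in 6 of 13 pan-epithelial markers, in 3 of 10 smooth muscle genes and in 1 of 12 Paneth cell markers. It was lowest in 0 of 10 genes of the proximal small intestine. Whether the position of the sample along the ileum has a part in the signal of the goblet cell genes was not tested.

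The averages over lists show this beside the goblet cell genes. The distal ileal list averaged 12.63, 15.42, 13.89 and 10.94 in water mice and 12.30, 10.88, 13.47 and 13.51 in voglibose mice. Pan-epithelial markers such as Epcam and Cdh1 averaged 14.32, 14.81, 14.47 and 14.13 in water mice, against 14.59, 14.12, 14.50 and 14.49 with voglibose. The proximal list averaged 11.97, 9.95, 11.79 and 12.64 with water and 12.02, 12.85, 11 and 11.45 with voglibose, lowest in water mouse 2. For the pan-epithelial markers, water mouse 4 and voglibose mouse 2 were lowest by a smaller margin. Paneth cell markers averaged from 14.87 to 15.27 in water and from 14.69 to 15.19 in voglibose mice, with water mouse 4 at 14.91 and voglibose mouse 2 at 14.90. Taking each gene relative to the pan-epithelial average of its mouse moves all 10 differences by the same amount. That amount is set by the group difference of the pan-epithelial average, -0.004, so the small change was fixed in advance. Muc2 was then at 0.40 and Fcgbp at 0.41.

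**Figure D3:**
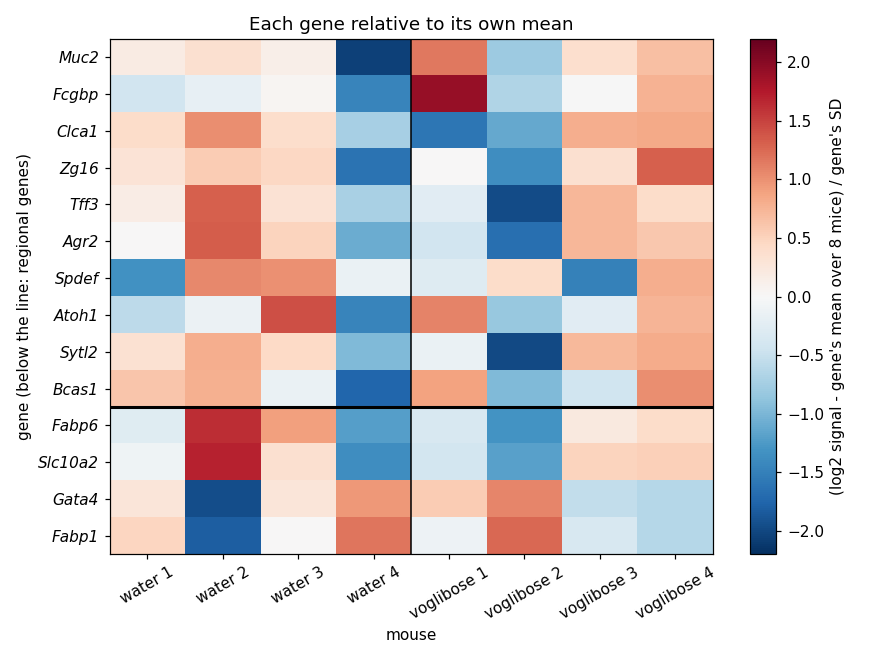
Log2 signal of the 10 goblet cell genes (above the line) and of the distal genes Fabp6 and Slc10a2 and the proximal genes Gata4 and Fabp1 (below it) in each mouse, as the deviation from the gene's mean over 8 mice in units of its SD, blue low and red high. Water mouse 4 and voglibose mouse 2 are blue for the goblet cell genes other than Spdef and for the distal genes, where Fabp6 was 4.01 and 3.54; in voglibose mouse 1 Fcgbp is red at 16.97 and Clca1 blue at 16.63.

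How far the genes moved together from mouse to mouse was described by Pearson's r between values with the group means removed, over the 8 arrays, which share the tissue differences just given. Of the 45 pairs among the 10 genes, 43 had a positive r, with a median of 0.67. Without water mouse 4 and voglibose mouse 2, 27 pairs were positive and the median was 0.26. Without voglibose mouse 1 instead, 42 were positive and the median was 0.84, so the joint movement depended on the mice used. Tff3 and Agr2 kept close to each other in both sets, with r of 0.98 over 8 mice and 0.97 over 6. Muc2 and Fcgbp did so too, with 0.86 and 0.93, while Fcgbp and Clca1 had 0.03 and -0.86. The opposite values of voglibose mouse 1 weigh on this last pair, which had 0.85 without that mouse.

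The genes most like the goblet cell genes were taken as those, among 9753 named probe sets above the median signal, with the highest r to the average of the 10 over the 8 arrays. They were P2ry4 (0.99), Prox1 (0.98), Tmem117 (0.98), Tm4sf4 (0.98), Fgfrl1 (0.98), Stxbp6 (0.98), Osr2 (0.98), Stambpl1 (0.98), Naip5 (0.98) and Abat (0.98). For Muc2 alone they were Arhgap1 (0.99), Susd2 (0.98), Pard3b (0.98), Slc41a3 (0.97) and Gas6 (0.97). An r over 0.9 to the average was reached by 159 probe sets, so with 8 arrays the order among them carries little. P2ry4, a nucleotide receptor, had 8.19, 9.38, 8.56 and 6.72 in water mice and 8.53, 6.97, 8.63 and 9.15 in voglibose mice, low in the same pair.

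Of 26 other goblet cell markers measured, 9 were higher and 17 lower in voglibose mice, with a median of -0.12. At an unadjusted p under 0.05 in limma's fit 1 was higher and 2 were lower, where 7.52% of the array stood, and none passed over all probe sets. Without water mouse 2, 12 were higher and 14 lower, with a median of -0.0079. Capn8, a calpain best known from gastric mucous cells, averaged 5.20 ± 0.22 with water and 5.76 ± 0.29 with voglibose (SD, n = 4), with a signal below the array medians. Ramp1, a receptor component for the neuropeptide CGRP, had 8.90 ± 0.18 and 8.49 ± 0.23, and Rep15, a Rab15 effector, had 9.14 ± 0.24 and 8.75 ± 0.15. Without water mouse 4 and voglibose mouse 2, Capn8 differed by 0.57 (unadjusted p = 0.00903 in limma's fit). In that fit Ramp1 differed by -0.37 (unadjusted p = 0.0824) and Rep15 by -0.26 (unadjusted p = 0.169). Without water mouse 2, Capn8 differed by 0.575 (unadjusted p = 0.0164 in limma's fit). Ramp1 then differed by -0.38 (unadjusted p = 0.0616) and Rep15 by -0.46 (unadjusted p = 0.0222). Pla2g10, a secreted phospholipase, differed by -0.31 ± 0.17 (SE). Among the markers with larger differences, named after their values were seen, the kallikrein Klk1 differed by -0.66 ± 0.45 and Oit1 by -0.48 ± 0.30 (SE). Without water mouse 2, their highest mouse, they differed by -0.23 and -0.25. Without water mouse 4 and voglibose mouse 2 they differed by -0.81 and -0.48. Retnlb, the goblet cell protein RELM beta, also named after its values were seen, was 7.80 in water mouse 2 and from 3.03 to 3.45 in the other 7 mice, below the lower quartiles. Water mouse 2 was also the mouse with the highest Fabp6, at 17.50.

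Among the relatives of the mucus proteins no gene passed limma's test over all probe sets. The gastric and airway gel-forming mucins Muc5ac and Muc5b had mean signals below the array medians in both groups, with differences of -0.06 ± 0.17 and 0.18 ± 0.19 (SE), and other gel-forming mucins were not analysed here. Of 5 measured membrane mucins 2 were higher and 3 lower. Muc13, the abundant membrane mucin of enterocytes and goblet cells, had 18.24, 18.28, 18.09 and 18.24 in water mice and 18.40, 18.33, 18.51 and 18.47 in voglibose mice. Its groups did not overlap, as in 4.35% of all probe sets, and the difference was 0.22 ± 0.13 (SE; limma, adjusted p = 0.731). Muc20 differed by 0.35 ± 0.19 and Muc1 by -0.21 ± 0.17, both dim. Among 9 trefoil, CLCA and anterior gradient relatives, 7 were higher and 2 lower, with 1 at an unadjusted p under 0.05 (7.52% of the array). This was Clca3a2, a chloride channel accessory relative of Clca1, with a difference of 0.62 ± 0.27, larger than that of any of the 10 genes (unadjusted p = 0.0448 and adjusted p = 0.659 in limma's fit). It was 0.57 without water mouse 2 (unadjusted p = 0.0897) and 0.57 without water mouse 4 and voglibose mouse 2 (unadjusted p = 0.0341 in limma's fit). Clca3a1 differed by 0.22 ± 0.25, Clca3b by 0.23 ± 0.17 and Agr3 by -0.30 ± 0.21. Clca3a1 and Clca3a2 are close copies, and their probes may share signal.

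Among 17 genes of granule release and the mucus layer, 5 were higher and 12 lower in voglibose mice, 2 of them at an unadjusted p under 0.05 (7.52% of the array) and 0 over all probe sets in limma's fit. The groups did not overlap in 2 of the 17, as in 4.35% of the array, and these were Vamp8 and Sytl3. Vamp8, the vesicle SNARE that mediates mucin granule exocytosis, had 11.62, 11.87, 11.75 and 12.31 in water mice, and 11.20, 11.21, 11.42 and 11.56 in those on voglibose. Every water mouse lay above every voglibose mouse, and the difference was -0.54 ± 0.18 (SE; adjusted p = 0.652). Water mouse 4 was the highest, and without it and voglibose mouse 2 the difference was -0.35 (unadjusted p = 0.0698 in limma's fit). Without water mouse 2 the difference was -0.55 (unadjusted p = 0.0189 in limma's fit). Sytl3, a relative of Sytl2, differed by -0.51 ± 0.15, and it was dim, with means of 5.85 and 5.34. Snap23, a SNARE of the plasma membrane, differed by 0.41 ± 0.19, and Rab27b, a granule GTPase that binds Sytl2, by -0.54 ± 0.33.

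Genes of secretory lineage choice included Notch receptors and ligands, whose signal holds back Atoh1. Of 20 measured, 14 were higher and 6 lower, with a median of 0.06 and 0 at an unadjusted p under 0.05. The receptor Notch2 differed by 0.32 ± 0.21 (SE), the tuft cell factor Gfi1b by 0.35 ± 0.26, and the intestinal factors Hnf4a and Cdx2 each by 0.17, with SE of 0.15 and 0.16. In the list of cytokines, their receptors and STAT factors that act on goblet cells, 6 of 15 were higher and 9 lower, with 1 in each direction at an unadjusted p under 0.05 (7.52% of the array). The receptor chain Il13ra1 averaged 14.76 ± 0.26 with water and 14.35 ± 0.07 with voglibose (SD, n = 4), and its groups did not overlap (adjusted p = 0.658 in limma's fit). Il13, the type 2 cytokine that drives goblet cell expansion, lay at 3.54 and 4.04, below the lower quartiles of the arrays, with a difference of 0.49 ± 0.20. The decoy receptor Il13ra2 differed by 0.45 ± 0.23 and was dim as well.

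**Figure D4:**
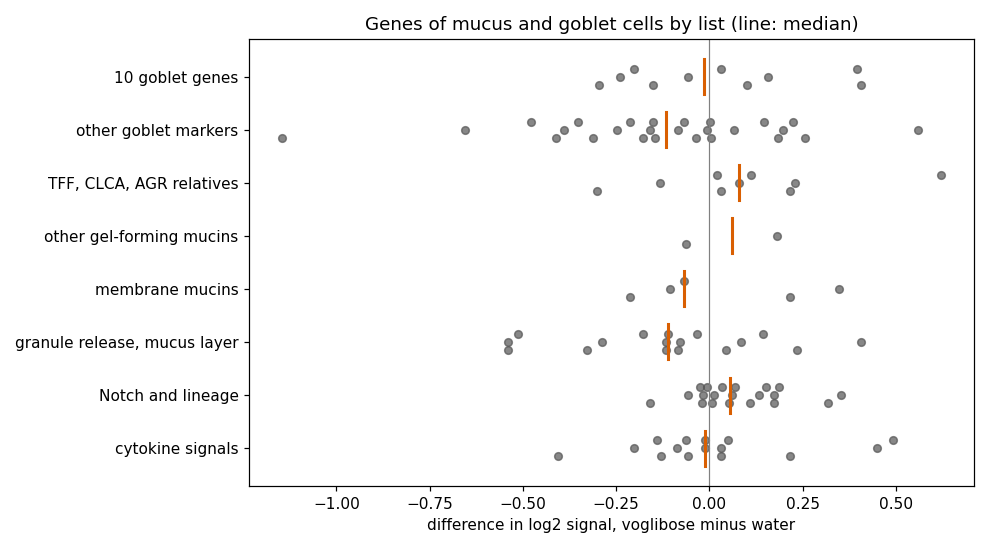
Difference in log2 signal between voglibose and water mice for each measured gene of 8 lists, 1 point per gene, with the list's median as an orange line. The medians lie close to 0, at -0.01 for the 10 goblet cell genes and -0.12 for other goblet cell markers, whose lowest point is Retnlb at -1.15.

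Markers of the other epithelial cell types were set beside them. Paneth cell markers were higher in 3 and lower in 9 of 12, with Lyz1, the Paneth cell lysozyme, at -0.17 ± 0.13 (SE), enteroendocrine markers higher in 6 and lower in 9 of 15, and enterocyte markers higher in 9 and lower in 3 of 12. None of these had an unadjusted p under 0.05. Tuft cell markers were higher in 2 and lower in 6 of 8, with 3 lower at an unadjusted p under 0.05, where 7.52% of the array stood. These were Gnat3 (-0.77 ± 0.20), Trpm5 (-0.73 ± 0.25) and Rgs13 (-0.90 ± 0.40), none past the test over all probe sets. Most of the list was dim, with 3 of the 8 above the array median, and Gnat3 averaged 4.60 with water and 3.84 with voglibose. Without water mouse 4 and voglibose mouse 2, 4 of the 8 were lower at that p, where 5.15% of the array stood, and without water mouse 2 there were 2 (8.24% of the array). The direction of some lists turned with the mice used. Paneth cell markers were higher in 7 of 12 without water mouse 2, and enteroendocrine markers in 10 of 15 without water mouse 4 and voglibose mouse 2. No gene of the lists passed over all probe sets in either of these fits.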

How the data were processed

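The authors deposited log2 signals, 1 value per probe set and array. RMA (background correction, quantile normalization and summarization) and the Transcriptome Analysis Console are named, per the submitters' processing notes, without versions. The log2 scale was read from the values, and the array's genome build is not given in the sources used here. Symbols came from the platform annotation, updated through gene identifiers (RefSeq, GRCm38.p6).

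Every probe set was fitted, unfiltered, with limma (version 3.58.1, R 4.3.3; lmFit, eBayes; 2-sided), p-values were corrected by Benjamini-Hochberg, and 0.05 was the threshold. The fit was tested on simulated data. Each p-value sets a group difference against the spread between these mice, with limma's variance moderated over all probe sets. The number of arrays limits the precision, with a median SE of 0.18. The labels name no batch.

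The genes and lists were chosen with earlier results of these data known. Named were the 10 genes, up to 4 genes with the smallest p in a list described, and the genes most like them. Retnlb, Klk1, Oit1 and the regional genes Fabp6, Fgf15, Lct, Slc10a2, Gata4 and Fabp1 were named after their values were seen. Motifs were searched by exact match. Alternatives were a further quantile normalization, other variance models, a dim filter, scaling to epithelial markers, leaving out mice, and a replicate block. Python 3.11.15 with matplotlib 3.10.9 drew the figures.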

Additional observations from a re-analysis of the deposited data

Results flagged for a closer look

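In groups of 4 mice, a value was singled out when its gap to the nearest other value exceeded 0.829 of the group's range, which chance gives in about 1 of 20 groups. Over 61 genes and 122 groups this picked 14 values. Some of these genes were named after their values were seen, or for their likeness to others, so that rate cannot judge the count. Among the goblet cell genes the rule picked Muc2 at 16.55 (others 17.79 to 17.91) and Zg16 at 17.85 (others 18.23 to 18.28), both in water mouse 4.

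In the same mouse it picked Arhgap1 at 12.71, Susd2 at 11.28 and Gas6 at 8.36, genes that were named for their likeness to Muc2, and Il13ra1 at 15.15. In voglibose mouse 2 it picked Naip5 at 14.56 and the pancreatic genes Cpa1 at 12.01 and Amy2a5 at 14.09. In water mouse 2 it picked Retnlb at 7.80, Oit1 at 13.05 and Lct at 12.39. Il13ra1 at 14.45 in voglibose mouse 1 and Gnat3 at 4.21 in voglibose mouse 4 were the others.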

How the results depend on the processing

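No goblet cell gene passed limma's test over all probe sets under any of 15 alternatives, with adjusted p from 0.631 to 1 over 150 refits. With a further quantile normalization the sign of Zg16 turned, to -0.049, and that of Spdef, to 0.013. When 1 mouse was left out, the difference ran from -0.072 to 0.125 for Zg16, from -0.326 to 0.0075 for Tff3, from -0.628 to 0.089 for Agr2 and from -0.157 to 0.033 for Spdef. It ran from -0.021 to 0.383 for Atoh1, from -0.338 to 0.158 for Sytl2 and from -0.116 to 0.246 for Bcas1, while Muc2, Fcgbp and Clca1 kept their sign in all 15 alternatives. The number of the 10 genes that were higher in voglibose mice ran from 2 (without water mouse 4) to 8 (without voglibose mouse 2), and was 3 without voglibose mouse 4. The number at an unadjusted p under 0.05 ran from 0 to 1 (Fcgbp, without voglibose mouse 2, where 1306 of 22206 probe sets stood at that p). The number without overlap ran from 0 to 1 (Muc2, without voglibose mouse 2). It was also 1, again Muc2 (17.92 against 17.91 at the closest), without water mouse 4 and voglibose mouse 2 together. In that fit 10.5% of the array did not overlap, and for the fit without voglibose mouse 2 alone this share was not computed. With 1 mouse left out, probe sets of the whole array at that p ran from 969 (without voglibose mouse 1) to 1906 (without voglibose mouse 3) around 1671, and were 1019 with the dim filter, where fewer probe sets were tested. They were 1144 without water mouse 4 and voglibose mouse 2, and lowest, at 510, relative to the epithelial average, an alternative for this count that was chosen after seeing the data. The labels name no pairing of the groups by mouse number. Deviations of mice with the same number correlated at 0.015, -0.324, 0.014 and -0.184 over all probe sets. With mice that stand apart in regional genes, these values cannot decide whether the numbers pair mice. With the number as a replicate block, 1529 probe sets stood at an unadjusted p under 0.05 and 0 of the 10 genes. None of the 10 genes has over 1 probe set, so the rule for choosing among them changed nothing. Recomputing the marker lists without water mouse 4 and voglibose mouse 2, or without water mouse 2, was also chosen after seeing the data.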

Other observations

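Within each mouse, the signal of 1 goblet cell gene can be set relative to another. This would take out a change in the number of goblet cells if both signals followed that number alike, which was not tested. Of the 45 pairs, Fcgbp relative to Agr2 had the largest group difference, at 0.70 on the log2 scale, a pair named after its values were seen and so given with no test. It was 1.71, 0.78, 1.52 and 2.15 with water, against 3, 2.92, 1.32 and 1.73 with voglibose. The groups overlapped, and voglibose mice 1 and 2, the latter with pancreatic genes and without Fabp6 signal, lay above all others. Muc2 relative to Agr2 differed by 0.69, with 4.40 and 4.26 in the same mice and at most 3.5 in the other 6.

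In other cell types, the 4 voglibose mice averaged 8.08 to 8.43 over macrophage and dendritic cell markers and the water mice 8.49 to 8.62, with 7 of 9 lower. Of these, 3 stood at an unadjusted p under 0.05, where 7.52% of the array stood, and 0 passed over all probe sets (limma). The count at that p was 4 without water mouse 4 and voglibose mouse 2 (5.15% of the array), and 2 without water mouse 2 (8.24% of the array). Of 10 smooth muscle genes 8 were higher, against 1 without water mouse 4 and voglibose mouse 2 and 10 without water mouse 2, and their average was lowest in water mouse 4 at 9.58 and highest in water mouse 2 at 12.27. B and plasma cell markers were higher in 8 of 8, T cell markers in 7 of 8, colon genes in 5 of 8 and proliferation and stem cell genes in 4 of 10, with 0 at an unadjusted p under 0.05 in limma's fit. The directions for B and plasma cells and for T cells turned with the mice used. B and plasma cell markers were higher in 0 of 8 without water mouse 4 and voglibose mouse 2 and in 1 of 8 without water mouse 2, and T cell markers in 6 of 8 and 1 of 8. Mast cell markers were lower in 7 of 8 and stomach genes in 5 of 8, also with 0. Both lists were dim, with 1 of 8 mast cell markers and 0 of 8 stomach genes above the array median.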
